A study of Homo sapiens with 3 samples.

Results

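TEAD1, TEAD2, TEAD3 and TEAD4 encode the TEAD transcription factors, and VGLL1, VGLL3 and VGLL4 encode vestigial-like cofactors that bind them. These 7 genes were followed across arrays of A549 cells, a long-established line from a human lung carcinoma. They were taken by name, each through the brightest probe set that the platform annotation assigns to it, and all 7 were measured, out of 14884 named genes. The cells were transfected with an siRNA against TAZ (siTAZ), an siRNA against YAP (siYAP) or a control siRNA (siNC), using a lipid reagent, and total RNA was taken 48 h later. Each group was 1 Affymetrix whole-transcript array, so the data were 3 arrays of 1 cell line with no replicate. No value therefore carries an error, no p-value is given, and no difference could be set against the spread between cultures. How many different siRNAs each name stands for is not given in the sources used here.

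TEAD factors hold a DNA-binding TEA domain but activate little by themselves, and they depend on cofactors that dock on their other end. YAP and TAZ (genes YAP1 and WWTR1) are the co-activators that the Hippo kinases restrain, and they reach DNA mainly through TEAD proteins. Vestigial-like proteins bind TEAD proteins through a short conserved motif at a surface that overlaps the one YAP and TAZ use, and VGLL4 in particular is known to compete with YAP for TEAD. The study looked for genes regulated by either co-activator in these cells. The values here are the deposited mRNA levels of their DNA-binding partners on the same arrays. Where such values are equal, they cannot show whether the mRNA differed.

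The letters that TEAD proteins are known to recognise, GGAATG, read as CATTCC on the opposite strand, were searched on both strands of the promoter windows of RefSeq, build GRCh38.p14, each running from 250 bases before a gene's start to 50 after it. Windows were available for 5 of the 7 genes: TEAD2, TEAD3, VGLL1, VGLL3 and VGLL4. Only VGLL1 among them held the motif, 1 of 5 genes, against 16.7% of the 27305 genes with a window. VGLL2, the remaining vestigial-like gene, had a window without it. The VGLL1 stretch lies at chrX:136532046-136532075 on the plus strand and is shown as the one match, with the motif in capitals. The VGLL3 stretch lies at chr3:86991149-86991249 on the minus strand and is shown because VGLL3 differed most between the arrays. It holds no motif match, and its single capital is the first transcribed base.
VGLL1: taccatgttcctCATTCCtgcaggtgccca
VGLL3: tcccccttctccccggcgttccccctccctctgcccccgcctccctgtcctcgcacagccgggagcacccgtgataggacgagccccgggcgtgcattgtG

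The same letters also occur in promoters of some genes known as outputs of TEAD. Of 9 listed target genes with a window, 5 held a match, and only these are shown: CCN2, ANKRD1, AMOTL2, AXL and FOXF2. Their levels are set beside those of the factors further on. CCN2 (chr6:131951450-131951553, minus strand) held 3 matches and ANKRD1 (chr10:90921198-90921319, minus strand) held 2. AMOTL2 (chr3:134374499-134374528, minus strand) and AXL (chr19:41226531-41226560, plus strand) each held 1 match, in 1 of their 2 windows. FOXF2 (chr6:1389368-1389397, plus strand) held 1 match. Capitals mark the motif in either orientation.
CCN2: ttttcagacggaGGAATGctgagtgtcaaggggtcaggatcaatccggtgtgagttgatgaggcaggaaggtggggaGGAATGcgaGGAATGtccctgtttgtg
ANKRD1: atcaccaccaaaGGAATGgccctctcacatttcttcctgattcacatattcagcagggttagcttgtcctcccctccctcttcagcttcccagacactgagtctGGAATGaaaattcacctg
AMOTL2: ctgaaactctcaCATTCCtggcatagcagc
AXL: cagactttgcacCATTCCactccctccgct
FOXF2: gaggccgcgagaGGAATGaagagcgaggag

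Levels are RMA values on a log2 scale, and a difference between 2 arrays is the difference of those values. Each of the 7 genes had 1 named probe set, whose mean over the arrays reached 4.27, the median of the table's 53617 probe sets. All 7 therefore belong to the 10768 genes kept for comparison. Levels of different probe sets are not compared with each other, because each responds with its own brightness. In the labelled cell type, 5 of 5 named epithelial markers were kept, as were 10768 of all 14884 named genes. CDH1, also listed, had no named probe set. Of the leukocyte markers, 2 of 2 named were kept too, so being kept does not mark a cell type. EPCAM was at 8.13 (siTAZ), 8.19 (siYAP) and 8.23 (siNC). The keratin gene KRT7 was lower on siTAZ, at 6.10, against 6.51 on both siYAP and siNC, and KRT18 was at 11.38, 11.56 and 11.56 on the same arrays. KRT8 and KRT19 had equal values on siTAZ and siNC. The lung lineage markers SFTPB, SFTPC and NKX2-1 were only just above the filter, at 4.61 to 5.04 on all 3 arrays. The listed A549 markers AKR1B10, AKR1C1 and ALDH1A1 had no named probe set.

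None of the 7 genes differed by 1.5-fold between any pair of arrays. The share of kept genes that did was 1.78% in siTAZ minus siNC, 0.901% in siYAP minus siNC and 0.743% in siYAP minus siTAZ, so a count of 0 among 7 is close to that background. None reached 2-fold either, where the shares were 0.316%, 0.195% and 0.0929% in the same comparisons. In siTAZ minus siNC 1 of the 7 was higher by any amount (29.7% of kept genes) and 1 was lower (21.7%). In siYAP minus siNC 2 were higher (27.0%) and 2 lower (21.7%), and in siYAP minus siTAZ 1 was higher (19.9%) and 3 lower (26.2%). The median difference over the 7 genes was 0 in each of the 3 comparisons, as it was over all kept genes. Both comparisons with siNC use the same control array, so a departure of that array appears in each of them.

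**Figure D1:**
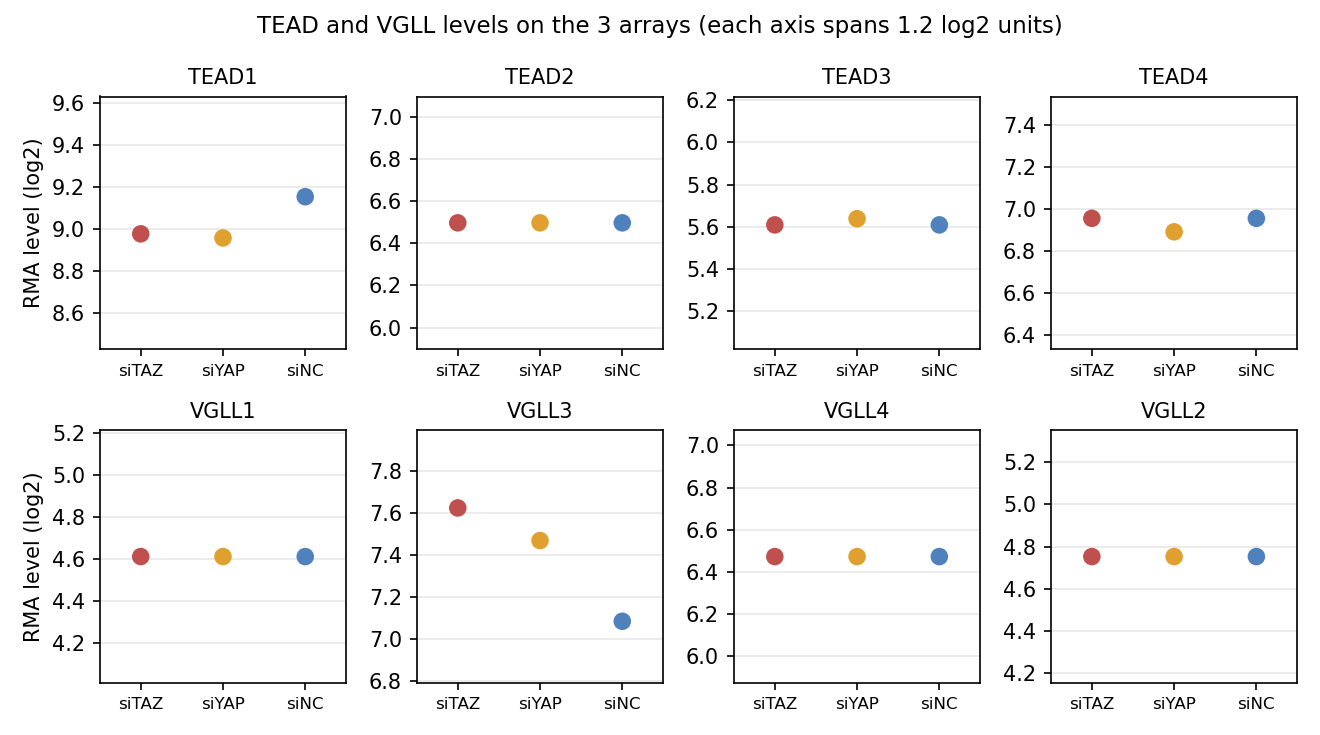
RMA level (log2, vertical axis) of the 4 TEAD and 4 vestigial-like genes on the siTAZ, siYAP and siNC arrays, 1 point per array and no error bar because there was 1 array per group. Each panel has its own axis of equal length. VGLL3 is higher on both knockdown arrays (7.62 and 7.47, against 7.08 on siNC), TEAD1 is lower on both (8.98 and 8.96, against 9.15), and the other genes lie within 0.064 across the arrays.

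Among the DNA-binding factors, TEAD1 (probe set 16722189), a widely expressed TEAD factor, had levels of 8.98 on the siTAZ array, 8.96 on the siYAP array and 9.15 on the siNC array. The knockdown arrays lay close together, both below the control. The differences from siNC were -0.18 for siTAZ and -0.20 for siYAP, which are 1.13-fold and 1.15-fold lower and leave 88.5% and 87.3% of the control level. At least as large a negative difference was found for 842 kept genes (7.82%) in siTAZ minus siNC and for 535 (4.97%) in siYAP minus siNC. Between the knockdowns TEAD1 differed by -0.020 (siYAP minus siTAZ). With the mean of siNC and the other knockdown array as reference, the TEAD1 differences were -0.078 for siTAZ and -0.11 for siYAP. Because that reference holds the other knockdown array, a difference shared by both is reduced by arithmetic alone.

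TEAD4 (probe set 16746906), a factor known in the mouse for the trophectoderm of the early embryo, was at 6.96 on the siTAZ array, 6.89 on the siYAP array and 6.96 on the siNC array. The siTAZ and siNC values were identical in every deposited digit, and the siYAP value was 0.064 lower, a 1.05-fold difference. As large a negative difference was shown by 13.4% of kept genes. TEAD3 (probe set 17018459), known for its expression in placenta, was at 5.61 on the siTAZ array, 5.64 on the siYAP array and 5.61 on the siNC array. Its siTAZ and siNC values were again identical, and siYAP was 0.029 higher, and 22.2% of kept genes had at least as large a positive difference. TEAD2 (probe set 16874273), a factor of the early mouse embryo, had the same value of 6.50 on all 3 arrays.

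Among the vestigial-like cofactors, VGLL3 (probe set 16956532) had the widest span of the 7 genes. Its levels were 7.62 on the siTAZ array, 7.47 on the siYAP array and 7.08 on the siNC array, so both knockdown arrays were above the control and siTAZ was the highest. VGLL3 was 0.54 higher on siTAZ (1.45-fold) and 0.38 higher on siYAP (1.30-fold). At least as large a positive difference was found for 109 kept genes (1.01%) in siTAZ minus siNC and for 162 (1.5%) in siYAP minus siNC. Between the knockdowns its difference was -0.15 (siYAP minus siTAZ), and 6.12% of kept genes had at least as large a negative difference. The siNC array enters both comparisons. With the mean of siNC and the other knockdown array as reference, VGLL3 was 0.35 higher on siTAZ and 0.11 higher on siYAP. A difference shared by both knockdowns shrinks under that reference by arithmetic alone, so these values are no check of the siNC array.

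Some markers of other cell types moved in the same direction as VGLL3. LUM, a matrix proteoglycan of fibroblasts, was at 8.14 (siTAZ), 8.10 (siYAP) and 7.45 (siNC), while DCN, the other named fibroblast marker of 5 listed, was at 2.38 on all 3 arrays, below the filter. CD68, a lysosomal protein used as a macrophage marker, was at 9.0, 9.02 and 8.43 on the same arrays, while CD14, the other named leukocyte marker of 5 listed, was at 4.49, 4.55 and 4.49. Of 4 endothelial markers, VWF and KDR had 1 value each on all 3 arrays (4.42 and 3.89), and PECAM1, below the filter, was at 3.90, 3.80 and 3.60. The part of other cell types in the VGLL3 values was not tested.

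VGLL1 (probe set 17107309), a cofactor known from placenta, had the value 4.61 on all 3 arrays, which is near the filter. VGLL4 (probe set 16950770), the vestigial-like protein that competes with YAP, had the value 6.47 on all 3 arrays. VGLL2, a cofactor of skeletal muscle that is not among the 7 genes, likewise had a single value, 4.75. The values of these 3 genes were equal in every deposited digit.

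**Figure D2:**
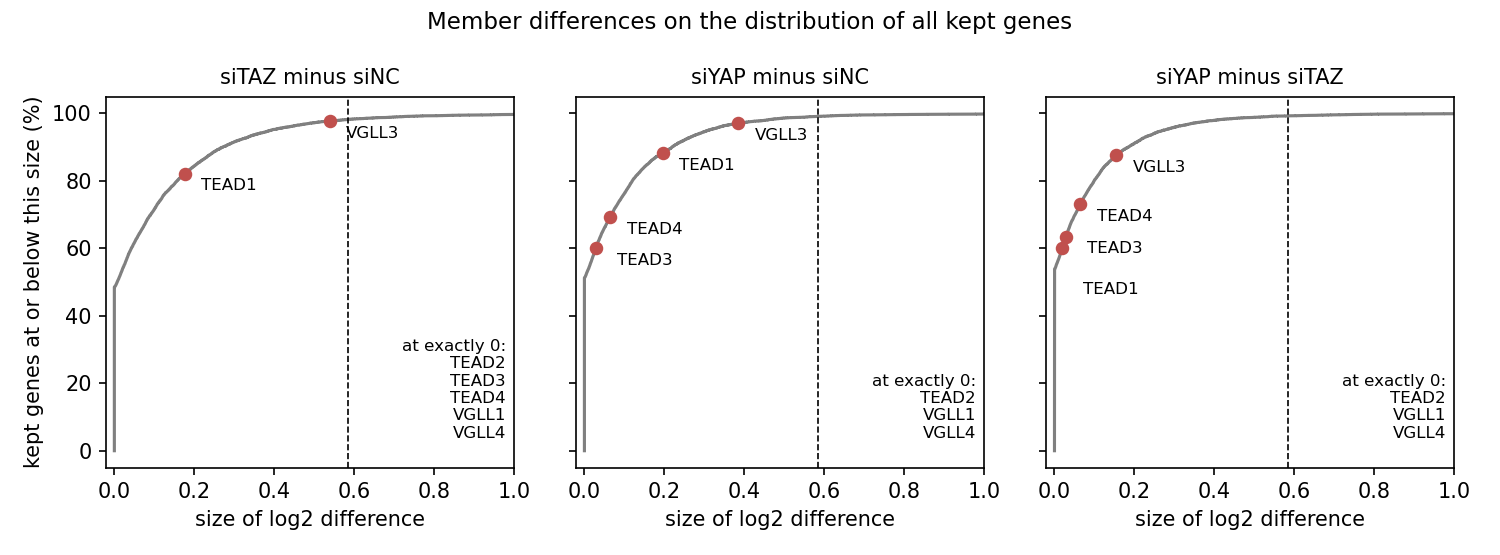
Share of the 10768 kept genes (vertical axis, %) whose difference has at most the size on the horizontal axis (log2, without sign), for siTAZ minus siNC, siYAP minus siNC and siYAP minus siTAZ. Red points are the TEAD and vestigial-like genes with a difference other than 0, those at exactly 0 are listed, and the dashed line is 1.5-fold. VGLL3 lies to the left of the line in each panel.

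Exact equality between arrays was common in the deposited table and sets how these values can be read. RMA fits the probes of a probe set by median polish, and with 3 arrays a median can return the same fitted value for several of them. Equal values thus do not show that the probes were equally bright, and the probe signals were not used here. All 3 arrays were identical for 41.1% of kept genes, and for TEAD2, VGLL1 and VGLL4 among the 7. Only siTAZ and siNC were identical for 7.46% of kept genes, and for TEAD3 and TEAD4. No 2 arrays were identical for 28.5% of kept genes, and for TEAD1 and VGLL3. The remaining classes, siYAP equal to siNC (10.2%) and siTAZ equal to siYAP (12.8%), held none of the 7.

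**Figure D3:**
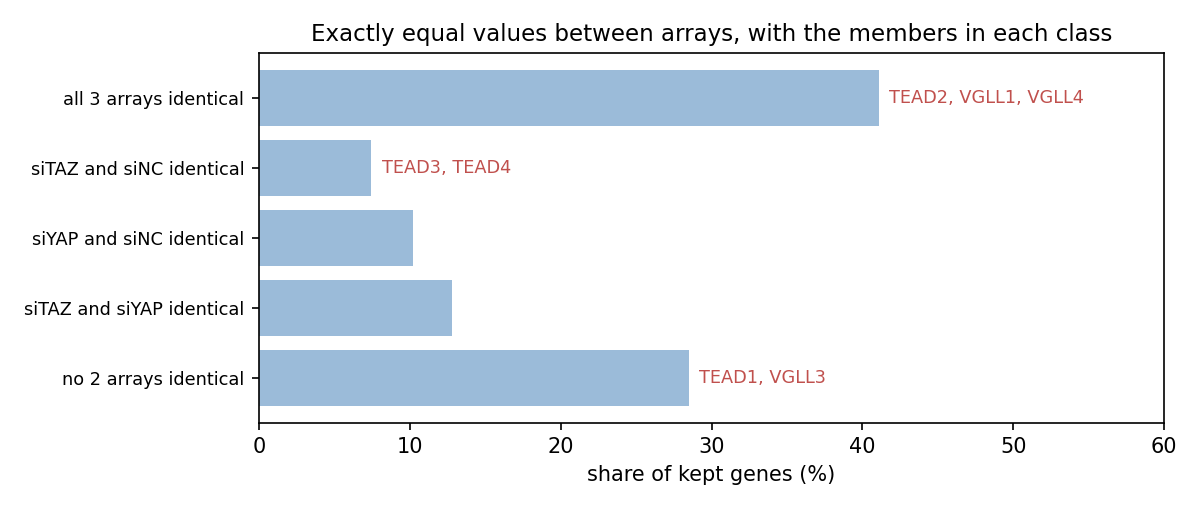
Share of the 10768 kept genes (horizontal axis, %) in each class of exact equality between the siTAZ, siYAP and siNC arrays, with the TEAD and vestigial-like genes of each class written beside its bar. The largest class, at 41.1%, has 1 value on all 3 arrays and holds TEAD2, VGLL1 and VGLL4.

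Genes with a similar profile were named by the Euclidean distance between the 3 levels, each gene centred on its own mean. For VGLL3, the gene with the widest span, the nearest were HOXB9, a homeobox transcription factor, LMNB2, which encodes lamin B2 of the nuclear envelope, and CXCL16, a chemokine. HOXB9 was at 6.31 (siTAZ), 6.14 (siYAP) and 5.77 (siNC), a distance of 0.0074 on the log2 scale from VGLL3. LMNB2 and CXCL16 were at distances of 0.022 each. Within a distance of 0.1 lay 76 genes. For TEAD1, added after its values were seen, the nearest were SOCS3, an inhibitor of cytokine signalling, at 0.0086, PEAR1 at 0.0094 and HKDC1, a hexokinase-like enzyme, at 0.010. Within 0.1 of TEAD1, whose levels spanned only 0.20, against 0.54 for VGLL3, lay 627 genes. These likenesses rest on 3 arrays.

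The co-activators that the siRNAs were aimed at are the direct partners of the TEAD factors. YAP1 had levels of 8.24 on siTAZ, 6.87 on siYAP and 8.45 on siNC, and WWTR1 had 5.81, 6.50 and 6.50 on the same arrays. The siYAP and siNC values of WWTR1 were equal in every digit, as for 10.2% of kept genes. YAP1 was thus 2.99-fold lower on its own knockdown array and WWTR1 1.61-fold lower on its own. YAP1 has 2 probe sets, and these values are those of the brighter one (-1.58 in siYAP minus siNC). The same difference was -0.57, under 1.5-fold, by the dimmer one and -1.08 with both averaged.

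Proteins that bind TEAD factors, act beside them on chromatin or modify them were taken as a list of 32 genes, YAP1 and WWTR1 included. The annotation named 25 of them and 24 were kept. Their median difference was 0 in each comparison. In siTAZ minus siNC 1 of 24 was at least 1.5-fold higher (0.762% of kept genes) and 1 lower (1.02%). In siYAP minus siNC 0 were higher (0.520%) and 2 lower (0.381%). Those past 1.5-fold included WWTR1 and YAP1 themselves. The others were both AP-1 genes, whose products often share enhancers with TEAD factors. Without YAP1 and WWTR1, 1 of 22 genes was at least 1.5-fold higher and 0 lower in siTAZ minus siNC. In siYAP minus siNC 0 of the 22 were higher and 1 lower.

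JUND, an AP-1 subunit, was at 7.66 on siTAZ, 7.26 on siYAP and 6.79 on siNC, the order of arrays seen for VGLL3. It was 1.83-fold higher on siTAZ and 1.38-fold higher on siYAP. With the mean of siNC and the other knockdown array as reference, the JUND differences were 0.64 on siTAZ and 0.032 on siYAP. FOSL1, another AP-1 subunit, was at 6.63, 6.51 and 7.11 on the same arrays, 1.40-fold lower on siTAZ and 1.52-fold lower on siYAP. With the mean of siNC and siTAZ as reference, FOSL1 was under 1.5-fold on siYAP (-0.36). For JUND and FOSL1 alike, such a reference reduces a shared difference by arithmetic alone and is no independent check. Examples picked after their values were seen were JUN and SMAD3, a TGF-beta signal transducer. JUN was at 6.52 on both knockdown arrays against 6.86 on siNC, and SMAD3 at 5.03 on both against 5.35. For each, the 2 knockdown values were equal in every digit, as for 12.8% of kept genes. At least as large a negative difference was shown by 3.23% (siTAZ) and 1.89% (siYAP) of kept genes for JUN, and 3.60% and 2.15% for SMAD3. KLF5, a transcription factor that binds YAP and also named outside the 1.5-fold rule, was at 9.46 (siTAZ), 9.34 (siYAP) and 9.10 (siNC). JUNB, SMAD4, PARP1 and NCOA2 were among the 8 partner genes with 1 value on all 3 arrays.

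**Figure D4:**
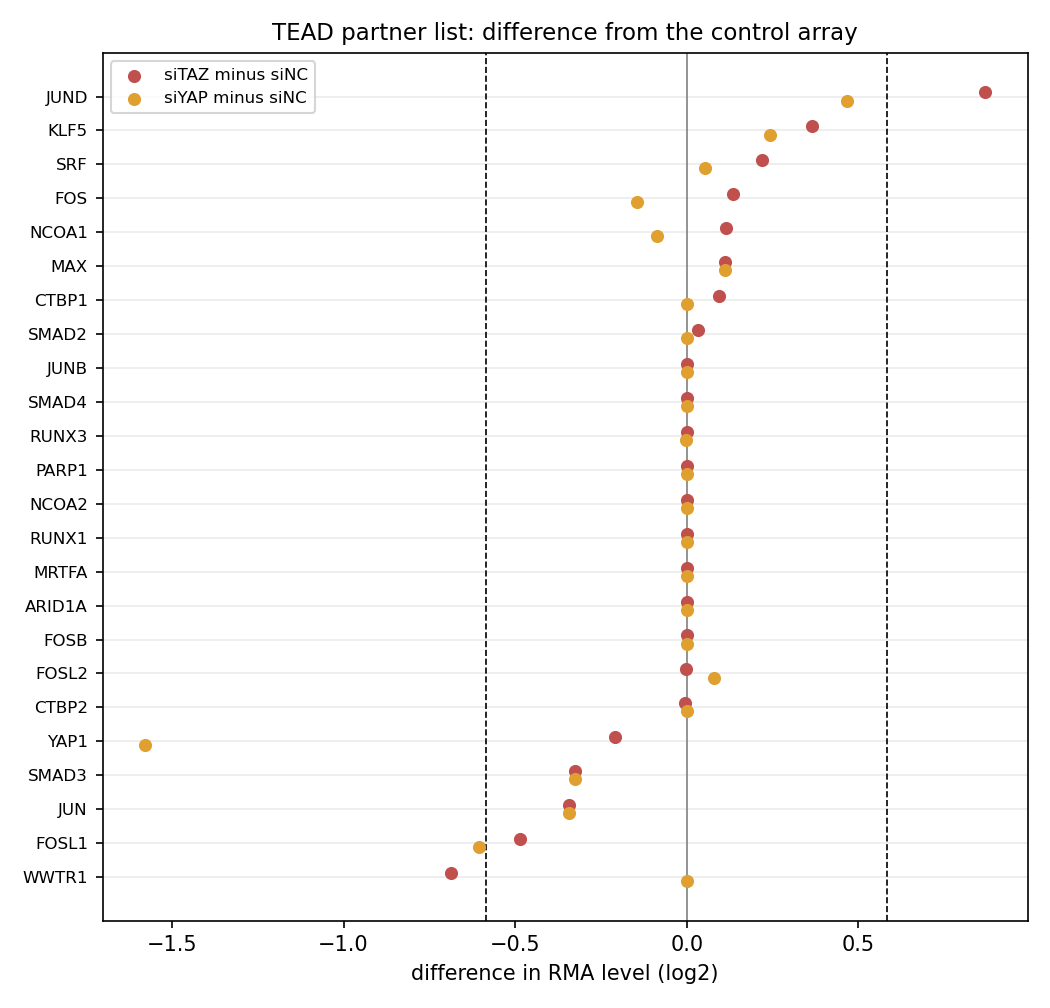
Difference in RMA level (log2, horizontal axis) of siTAZ minus siNC and siYAP minus siNC for the 24 kept genes of the TEAD partner list, ordered by the siTAZ difference. Dashed lines mark 1.5-fold. Apart from the siRNA targets YAP1 and WWTR1, only JUND (siTAZ) and FOSL1 (siYAP) lie beyond a line.

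The output of TEAD factors was represented by a published list of 22 YAP and TAZ target genes, of which 12 were named and all 12 kept. Among them 6 were at least 1.5-fold lower and 0 higher in siTAZ minus siNC, where 1.02% of kept genes were lower, and 2 lower and 0 higher in siYAP minus siNC, where 0.381% were lower. The median differences were -0.54 and -0.37, against 0 over all kept genes. In siTAZ minus siNC 8 of the 12 were lower by any amount (21.7% of kept genes), 2 higher (29.7%) and 2 equal. In siYAP minus siNC 7 were lower (21.7%), 3 higher (27.0%) and 2 equal. With the mean of siNC and siTAZ as reference, the siYAP median was -0.021 and 0 targets were 1.5-fold lower. Because siTAZ is part of that reference, this is no independent check of the siYAP differences. The list was assembled as responsive to YAP and TAZ, and these counts are given for contrast with the factors. CCN2, whose printed stretch holds 3 motif matches, was at 6.35 (siTAZ), 6.81 (siYAP) and 7.90 (siNC) by the brighter of its 2 probe sets, differences of -1.55 and -1.09. With both probe sets averaged the CCN2 differences were -0.79 on siTAZ and -0.55, under 1.5-fold, on siYAP, and by the dimmer one alone they were -0.032 and 0. ANKRD1, with 2 matches, was at 4.18, 5.84 and 6.41, where the siTAZ level lies below the filter. AXL was at 7.78, 8.06 and 9.24, and AMOTL2 at 5.62, 5.84 and 6.21. The knockdown arrays lay below the control for each of these 4 genes, and for AMOTL2 on siYAP by the least (fell by 0.38 on the log2 scale). DOCK5 and CRIM1, which had no promoter window, were 2.03-fold and 1.68-fold lower on siTAZ. FOXF2, a forkhead factor with 1 match, was at 6.86, 6.55 and 6.33, above the control on both knockdown arrays. The targets with a window but no match were MYOF, IGFBP3, FJX1 and CCDC80. Their differences were -0.48, 0.037, 0 and -0.23 in siTAZ minus siNC. In siYAP minus siNC they were -0.36, 0.029, 0 and 0.30, in the same order. A link between matches and levels was not tested.

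**Figure D5:**
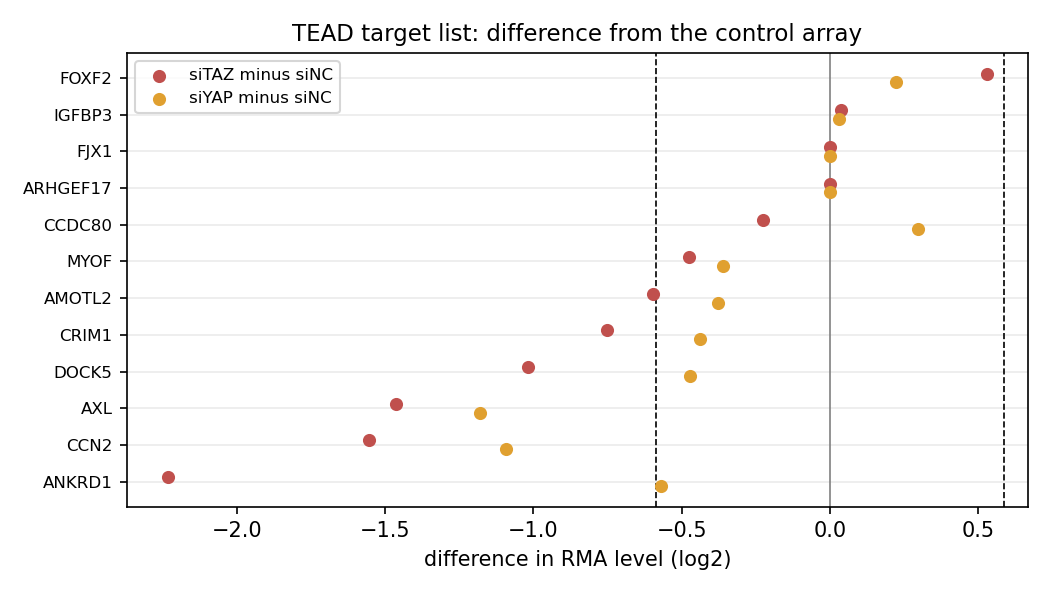
Difference in RMA level (log2, horizontal axis) of siTAZ minus siNC and siYAP minus siNC for the 12 named genes of the TEAD target list, ordered by the siTAZ difference. Dashed lines mark 1.5-fold. On siTAZ 6 genes lie beyond the lower line, and on siYAP AXL and CCN2 do.

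The motif occurred in the windows of 5 of the 9 listed targets that had one (55.6%), in 4 of 22 partner genes (18.2%) and in 15% of the 8315 kept genes with a window. At least 2 matches were held by CCN2 and ANKRD1 among the targets, and by 1.40% of kept genes. A gene with several windows was counted once if any of them matched. A match of 6 letters is a description of the sequence and was not tested as a binding site.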

How the data were processed

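The authors made the deposited values, read here as log2 levels, by RMA, per the submitters' processing notes. Which RMA version, annotation and build they used is not given in the sources used here. No scale is named; log2 was inferred from a range of 0.96 to 13.5 and closely matching quartiles. The labelling reaction used 500 ng of RNA, per the labels' protocols. Quantile normalization, a step of RMA, makes each value relative to the rest of its array.

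Symbols came from the platform annotation: 16098 probe sets had 1 symbol, 0 had several and 37519 were unnamed. All 16098 Entrez identifiers matched RefSeq GRCh38.p14, which changed 0 symbols. The brightest probe set stood for each gene. A mean at or above the median of all probe sets (4.27) left 10768 genes. Array number limits the precision, and no test was possible with 1 array per group. Genes were counted at 1.5-fold and, as an alternative, at 2-fold. The genes and lists were chosen with earlier results of these data known. Named genes were the 7, VGLL2, YAP1, WWTR1, and list genes past 1.5-fold, up to 5 per comparison with siNC and 3 between knockdowns. JUN, SMAD3, KLF5, AMOTL2, FOXF2, the target genes without a motif match and the partner genes with 1 value on all 3 arrays were named outside this rule. Profile likeness was planned for genes spanning 1.5-fold, or else the widest. Counting was tested on simulated data, with independent noise for every probe set and known changes of 2-fold or more. The simulation held none of the exact equalities of the deposited values. It does not bear on differences as small as those of the 7 genes. Alternatives covered the probe set rule, filter, centring, an intensity trend (loess, span 0.4), renewed quantile normalization, the reference array and the fold. Protein sequences and the promoters of TEAD1 and TEAD4 were not used here. Python 3.11.15, pandas 2.3.3, numpy 2.4.6 and statsmodels 0.14.6 were used.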

Additional observations from a re-analysis of the deposited data

How the results depend on the processing

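No paired analysis was possible because each group had 1 array. The count of TEAD and vestigial-like genes past 1.5-fold was 0 in all 3 comparisons under each alternative run. The second brightest probe set gave no value for these genes, which have 1 each. Averaging probe sets, changing the filter and centring could not move their differences, as the centring medians were 0. Only the intensity trend, renewed quantile normalization and the reference array could. Of 134 recomputed differences of the 7 genes, most from settings that could not move them, 131 moved by less than 0.0903 (log2). That limit is the spread of siYAP minus siTAZ over kept genes divided by the square root of 2. The other 3 came with the mean of siNC and the other knockdown array as reference: VGLL3 (0.35 on siTAZ and 0.11 on siYAP) and TEAD1 on siTAZ (-0.078). The target list's medians were then -0.39 for siTAZ and -0.021 for siYAP, with 0 targets and 1 partner at least 1.5-fold lower on siYAP. That reference holds the other knockdown array, so a difference shared by both knockdowns is reduced or reversed by arithmetic alone. With the mean of all probe sets 1 target was past 1.5-fold lower on siYAP. The second brightest probe set existed for 1 target, CCN2, at -0.032 (siTAZ), 0 (siYAP) and 0.032 (siYAP minus siTAZ). With the filter at the 75th percentile 0 targets were past 1.5-fold higher in siYAP minus siTAZ, against 1 of 12 at the main filter. That 1 target, ANKRD1 (1.66), was removed by the stricter filter. At 2-fold, the partner list had 0 genes lower and 0 higher on siTAZ, 1 lower on siYAP, and 0 higher in siYAP minus siTAZ, and the target list had 4 lower on siTAZ and 2 on siYAP. The causes were not tested. Without replicates, differences of the size seen for TEAD1 and VGLL3 have no measured error.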
